A study of Mus musculus with 16 samples.

Results

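The comparison described here is that of Twist1 shRNA 1 with a control shRNA in mouse cortical neurons carrying mutant huntingtin, 8 libraries of the 16 in the series, chosen by their labels. A short hairpin RNA (shRNA) is processed by the cell into a guide that lowers the transcript it matches. The neurons were primary cultures from Swiss Webster embryos of embryonic day 16, transduced on day 5 in vitro with 2 lentiviruses and harvested on day 10. The first virus carried exon 1 of huntingtin (Htt) and the other a hairpin. All 8 libraries carried exon 1 with 72 glutamines (72Q); 4 received a hairpin against luciferase, the control, and 4 received Twist1 shRNA 1. A further 2 groups of 4 libraries serve for reference: 72Q with Twist1 shRNA 2, and a 25-glutamine exon (25Q) with the control hairpin. Every group had 1 library in each of the 4 experiments, labelled exp107, exp108, exp109a and exp109b, and values for single libraries are listed in that order throughout. The labels exp109a and exp109b share a number, and no label says whether they were separate preparations; if they were not, the 4 experiments come from 3 preparations. Huntingtin here was an exon delivered by virus and not the full-length gene, every library had both viruses, and RNA came from whole cultures, in which fewer cells of a type and less RNA per cell cannot be told apart.

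Twist1 belongs to the basic helix-loop-helix (bHLH) family and directs gene expression in mesoderm and cranial neural crest. It pairs with E proteins such as Tcf3, Tcf4 and Tcf12 or with Hand proteins and binds E-boxes, short motifs spelled CANNTG, as an activator or a repressor. Id proteins sequester E proteins and so limit such pairs. In cortical neurons Twist1 is normally scarce, and long glutamine tracts in huntingtin, the cause of Huntington disease, disturb transcription broadly.

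The 8 libraries held 15814525 to 19165457 counts. On the first principal component (44.3% of the variance of the 8) the control libraries lay between -30.4 and -18.6 and the shRNA 1 libraries between 18.3 and 29. The second component (19%) set both exp108 libraries apart, at -28.8 and -25.7 against 2.64 to 16.8 for the others. Transcripts of the mitochondrial genome made up 3.38 ± 0.181% of counts in the control and 2.85 ± 0.413% with shRNA 1 (SD, n = 4). The share was lower with shRNA 1 in 4 of 4 experiments. A two-sided exact permutation test, not paired by experiment, gave p = 0.0571, and its smallest possible p is 0.0286. Genes with at least 1 count numbered 20544 to 21306 and 20488 to 21306.

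Twist1 transcript was lower with shRNA 1 in every experiment. Twist1 (ENSMUSG00000035799, chr12:33957671-33959817, GRCm38) stood at 3.29, 5.08, 3.84 and 4.39 CPM (TMM-scaled CPM, a count relative to library size) in the control libraries and at 1.82, 1.69, 0.904 and 1.87 CPM with shRNA 1. The groups did not overlap, and the library of exp109a was the lowest with shRNA 1. The log2 fold change, shRNA 1 minus control, was -1.35 ± 0.21 (SE; adjusted p = 1.52e-06 by the quasi-likelihood test of edgeR, adjusted by Benjamini and Hochberg's method over all genes tested, as for every adjusted p below). Twist1 averaged 1.64 CPM with shRNA 2, and the difference between hairpins was -0.066 ± 0.24 (95% interval -0.56 to 0.43, adjusted p = 0.826). The remaining level was above the 0.271 CPM of 25Q neurons by 2.11 ± 0.37 log2 units (adjusted p = 1.04e-06). The mouse Htt gene (chr5:34761740-34912534) was at 243 ± 14.4 and 253 ± 21.9 CPM (SD, n = 4), with overlapping groups and a log2 fold change of 0.053 ± 0.053 (adjusted p = 0.434). No source used here says whether the viral exon adds reads to it.

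**Figure D1:**
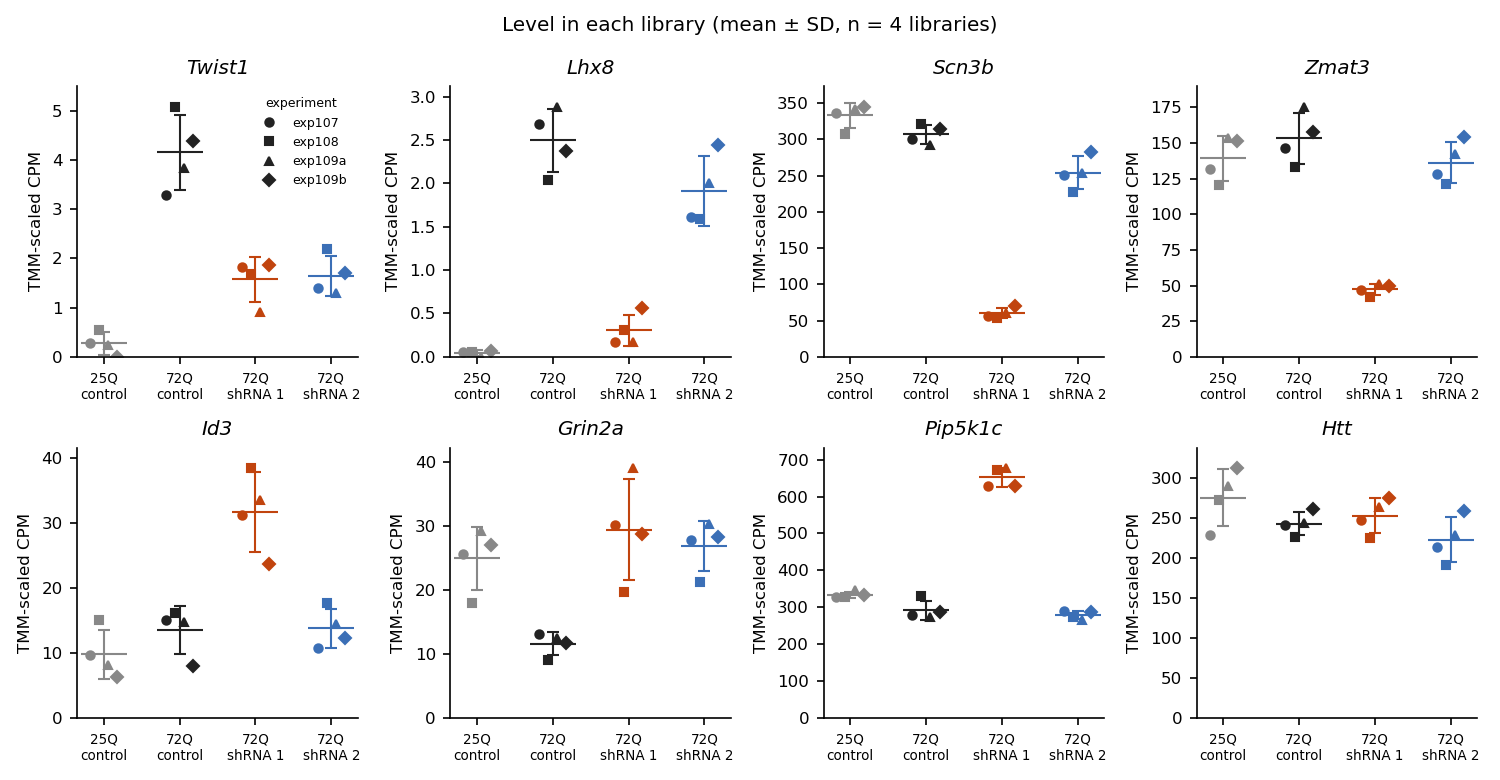
TMM-scaled CPM (y axis, linear from 0) of 8 genes in each library of the 4 groups (x axis); marker shapes are experiments, and the horizontal line and bars are the mean and SD of 4 libraries. Twist1 is low with both hairpins, Lhx8, Scn3b and Zmat3 are low and Id3 and Pip5k1c high with shRNA 1 beside the other 72Q groups, Grin2a is high with both hairpins, and Htt overlaps between the control and shRNA 1.

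Of 15103 genes tested, 6999 (46.3%) differed between shRNA 1 and the control at an adjusted p under 0.05. They divided into 3434 higher (22.7%) and 3565 lower (23.6%), of which 173 and 258 differed by at least 2-fold. The median absolute log2 fold change of called genes was 0.36, and the median over all genes was -0.0054. In 6594 called genes all 4 experiments shared the sign, and in 4201 the 2 groups did not overlap, against 4380 of all genes (29.0%). Without the experiment in the model the calls numbered 4561, in 2244 and 2317. In the fifth of genes with the lowest mean CPM, 128 were called at least 2-fold lower and 67 at least 2-fold higher.

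**Figure D2:**
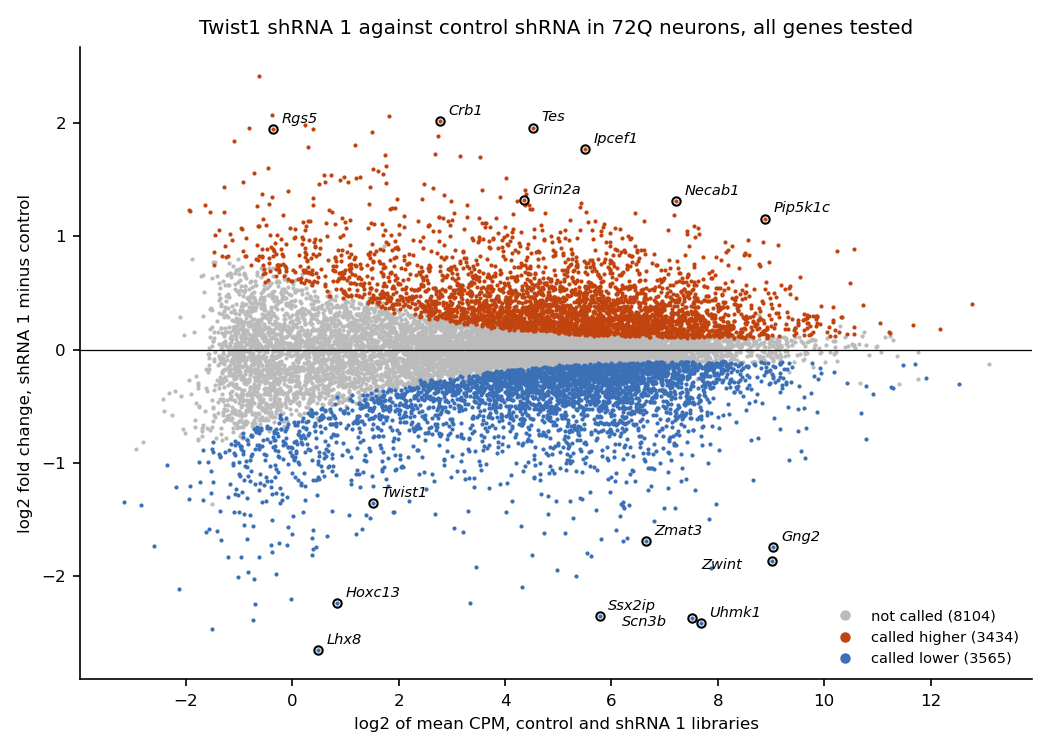
Log2 fold change, shRNA 1 minus control (y axis), against log2 mean CPM of the 8 libraries (x axis) for 15103 genes; colours mark 3434 genes called higher and 3565 called lower. Lhx8, the deepest fall of the named genes, lies among scarce transcripts, and Scn3b, Uhmk1, Zwint and Gng2 fell among abundant ones, where no named rise is as large.

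Genes were named by size among the called genes that averaged 1 CPM or more across all 16 libraries and had 1 sign in all 4 experiments, 15 in each direction, and again among genes with at least 50 CPM, 10 in each direction. The upstream 250 bases of the 2 highest and 2 lowest of the first set that have a single start in RefSeq (GRCm38.p6), and a window with no more than 30 bases inside the deposited gene, are shown because Twist1 binds E-boxes; each runs 5′ to 3′ in the gene's own orientation, and capitals mark CANNTG. Crb1 (chr1:139377077-139377326, minus strand) and Tes (chr6:17064899-17065148, plus strand) rose, and Lhx8 (chr3:154330561-154330810, minus strand) and Ssx2ip (chr3:146404392-146404641, plus strand) fell.
Crb1: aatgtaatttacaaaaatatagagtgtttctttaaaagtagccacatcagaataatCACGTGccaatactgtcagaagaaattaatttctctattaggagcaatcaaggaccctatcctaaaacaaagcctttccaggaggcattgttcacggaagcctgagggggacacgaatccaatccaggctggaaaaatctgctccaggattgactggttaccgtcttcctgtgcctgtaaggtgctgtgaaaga
Tes: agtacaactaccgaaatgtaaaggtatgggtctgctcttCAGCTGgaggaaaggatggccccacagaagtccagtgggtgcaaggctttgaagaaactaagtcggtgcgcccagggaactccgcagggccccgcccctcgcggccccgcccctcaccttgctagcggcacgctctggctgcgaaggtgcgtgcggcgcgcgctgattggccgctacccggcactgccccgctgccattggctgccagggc
Lhx8: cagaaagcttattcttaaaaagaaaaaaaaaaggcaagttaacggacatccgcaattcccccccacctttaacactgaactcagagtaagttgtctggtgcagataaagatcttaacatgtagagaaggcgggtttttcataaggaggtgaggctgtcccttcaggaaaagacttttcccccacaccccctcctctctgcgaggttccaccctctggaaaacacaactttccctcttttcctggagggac
Ssx2ip: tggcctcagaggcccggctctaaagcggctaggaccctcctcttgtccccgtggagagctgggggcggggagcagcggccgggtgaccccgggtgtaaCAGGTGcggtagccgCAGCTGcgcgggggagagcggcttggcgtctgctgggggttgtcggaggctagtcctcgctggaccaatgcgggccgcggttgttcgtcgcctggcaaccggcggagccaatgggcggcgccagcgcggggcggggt
The stretches of Crb1 and Tes each hold 1 E-box, that of Ssx2ip holds 2, and that of Lhx8 holds 0. Over all tested genes with a promoter in the table, 7029 of 11359 (61.9%) had CANNTG in this window. The motif was present in 8 of 10 of the 15 highest genes that have an entry and in 7 of 11 of the 15 lowest. In both sets a gene with several starts counted if any of its windows held the motif. Windows reaching into the deposited gene were kept, unlike for the printed stretches. Among all called genes the motif was found in 64.2% of those higher and 60.5% of those lower. Of the spelled-out forms, CATATG occurred in 2.01% and CAGATG in 12.0% of all tested promoters; both were searched on both strands, each is a case of CANNTG, and neither was in more than 1 gene at either end. These are matches of letters in a window, not binding sites.

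The deepest falls included scarce developmental regulators and abundant transcripts such as Scn3b. Lhx8 (chr3:154306294-154330561), a LIM-homeobox factor of basal forebrain cholinergic neurons, was at 2.68, 2.04, 2.88 and 2.37 CPM in the control and 0.176, 0.307, 0.169 and 0.561 CPM with shRNA 1. Its groups did not overlap, and the log2 fold change of -2.65 ± 0.29 (adjusted p = 5.85e-10) was the largest fall of the set, resting on 21 summed counts against 176, a ratio of 0.120 (95% interval 0.0724 to 0.189, counting error only). Scn3b (chr9:40269216-40291618), which encodes the beta-3 subunit of voltage-gated sodium channels, fell from 301, 322, 293 and 314 CPM to 55.7, 53.9, 60.4 and 69.4 CPM. Every shRNA 1 library lay far below every control library, with a log2 fold change of -2.36 ± 0.056 (adjusted p = 1.68e-23). Uhmk1 (chr1:170193420-170215397), a kinase that binds splicing factors, went from 337, 317, 337 and 384 CPM to 59.3, 48.3, 72.9 and 81.5 CPM (-2.41 ± 0.065, adjusted p = 5.82e-20).

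Ssx2ip (chr3:146404642-146440139), a protein of centrosomes and cell junctions, was at 99.01, 84.1, 95.3 and 89.97 CPM in the control and 19.9, 13.96, 20.1 and 18.4 CPM with shRNA 1, a log2 fold change of -2.35 ± 0.064 (adjusted p = 2.04e-22). Zwint (chr10:72654845-72674964), named for its place at the kinetochore, fell from 787, 854, 762 and 838 CPM to 219, 199, 219 and 256 CPM (-1.86 ± 0.056, adjusted p = 6.91e-21). Wdr6 (chr9:108572313-108578670), a partner of a tRNA methyltransferase, fell from 363, 373, 398 and 353 CPM to 94.5, 88.8, 104 and 105 CPM (-1.92 ± 0.052, adjusted p = 2.04e-22). Gng2, a G protein gamma subunit, fell by a similar margin, from 805 ± 94.6 to 241 ± 35.1 CPM (SD, n = 4; -1.74). The other genes of the 15 were Hoxc13 (-2.24), Ccdc96 (-2.23), Tbx20 (-2.20), Nudt16l1 (-2.09), Orai2, a store-operated calcium channel (-1.997), Tppp3 (-1.94), Tedc1 (-1.92), Mal2 (-1.82) and Ebf1 (-1.81). The abundant set added Thumpd1 (-1.79), Zmat3 (-1.69) and the chaperone-like Hspa12a (-1.69). Groups did not overlap in any of the 15 or of the 10, and the largest adjusted p among them was 4.65e-07. The choice of genes by call, shared sign and size favours both, so they are a description, here and for the rises below.

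Rises were shallower than falls at the extremes. Crb1 (chr1:139197056-139377100), a Crumbs protein of apical polarity, rose from 1.89, 2.80, 3.45 and 2.48 CPM to 10.99, 10.1, 13.4 and 9.98 CPM (log2 fold change 2.02 ± 0.13, adjusted p = 8.6e-14). Tes (chr6:17065149-17105828), the focal adhesion protein testin, rose from 12.1, 7.76, 10.6 and 6.92 CPM to 41.6, 41.2, 36.7 and 26.5 CPM (1.96 ± 0.11, adjusted p = 3.6e-11). In both genes the lowest shRNA 1 library, that of exp109b, was above the highest control library. Rtl3, a gene derived from a retrotransposon, rose by 2.06 ± 0.18, Ipcef1 from 20.5 ± 2.79 to 70.1 ± 10.1 CPM (1.77 ± 0.065) and Thbs1, a secreted thrombospondin, from 2.94 ± 0.675 to 9.86 ± 0.546 CPM (1.72 ± 0.16; SD, n = 4). Col1a1 (1.94), Rgs5 (1.94), Hpgd (1.92), Ndst4 (1.88), Gm17322 (1.80), Mybpc1 (1.72), A230052G05Rik (1.70), Pygm (1.62), Gucy2g (1.60) and the glycine receptor gene Glra3 (1.70) completed the 15, all with an adjusted p of 7.49e-05 or less.

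Among abundant transcripts, Pip5k1c (chr10:81292963-81319973), a kinase that makes the membrane lipid PI(4,5)P2, rose from 279, 330.2, 274 and 287 CPM to 628, 673, 676 and 629 CPM (1.16 ± 0.050, adjusted p = 1.08e-17). Necab1, a neuronal calcium-binding protein, had the highest fold change of these (1.31 ± 0.14), from control levels spread between 57.2 and 111 CPM to 184 to 237 CPM. Gda (1.21), Plcxd2 (1.18), the semaphorin receptor gene Plxnd1 (1.14), Tm7sf2 (1.13), Eml6 (1.10), Stum (1.09), Cacnb4 (1.08) and the transferrin receptor gene Tfrc (1.07) also rose. None of the 10 overlapped between groups, which their choice by size favours.

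The hairpins differed in many transcripts although Twist1 itself was not called between them. Between the 2 hairpins 8030 of 15103 genes (53.2%) were called, 4116 higher and 3914 lower with shRNA 1. Called genes were higher in 51.3% of cases here, but in 36.5% (2967 higher, 5164 lower) when libraries were scaled to their totals alone, a scaling that took the all-gene median from 0.0046 to -0.077. Both hairpins are compared with the same 4 control libraries, so their fold changes share those values and are only set side by side. The genes named by size were chosen as extremes with shRNA 1, and the same shRNA 1 libraries enter the comparison between hairpins. That choice favours a difference, so the counts and p-values for these genes are a description. Of the 15 highest genes 14 differed between hairpins, with shRNA 2 log2 fold changes from -1.07 to 1.73; the exception was Rgs5 (1.94 and 1.73, difference 0.21 ± 0.24, adjusted p = 0.434). Of the 14, Glra3 was not called without the experiment in the model (adjusted p = 0.0607). Col1a1 was called neither there (0.0824) nor with DESeq2 (0.0501), nor without the shRNA 1 library of exp107 (difference 0.54) or the shRNA 2 libraries of exp109a (0.39) or exp107 (0.58). All 15 of the lowest differed, with shRNA 2 values from -0.99 to 0.89. Of the 10 abundant genes that fell, 10 differed (shRNA 2 values -0.92 to 0.40). In the 10 abundant genes that rose, 9 did, Tm7sf2 being the exception (1.13 and 0.84, adjusted p of the difference 0.0583). Scn3b is one case, at -2.36 with shRNA 1 and -0.28 with shRNA 2, and the difference of -2.08 ± 0.056 had an adjusted p of 1.37e-22.

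A further set was chosen to be called with shRNA 1, to have an unadjusted p over 0.05 with shRNA 2 and to differ most between them, so its contrast between hairpins is a description. It gave 8 rises, in Gm17322, Ndst4, Thbs1, Scn7a (1.48), D330045A20Rik (1.49), Zfp663 (1.48), the iron exporter gene Slc40a1 (1.54) and the connexin gene Gja3 (1.12), and 8 falls. The falls were Lhx8, Tbx20, Wdr6, Zwint, the midbrain homeobox gene En1 (-1.76), Zmynd10, needed for motile cilia (-1.74), the Toll-like receptor adaptor gene Myd88 (-1.49) and C1ql4 (-1.43). With shRNA 2 the 16 genes lay between -0.39 and 0.36. Gja3 was the 1 gene of the 16 whose control and shRNA 1 libraries overlapped.

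**Figure D3:**
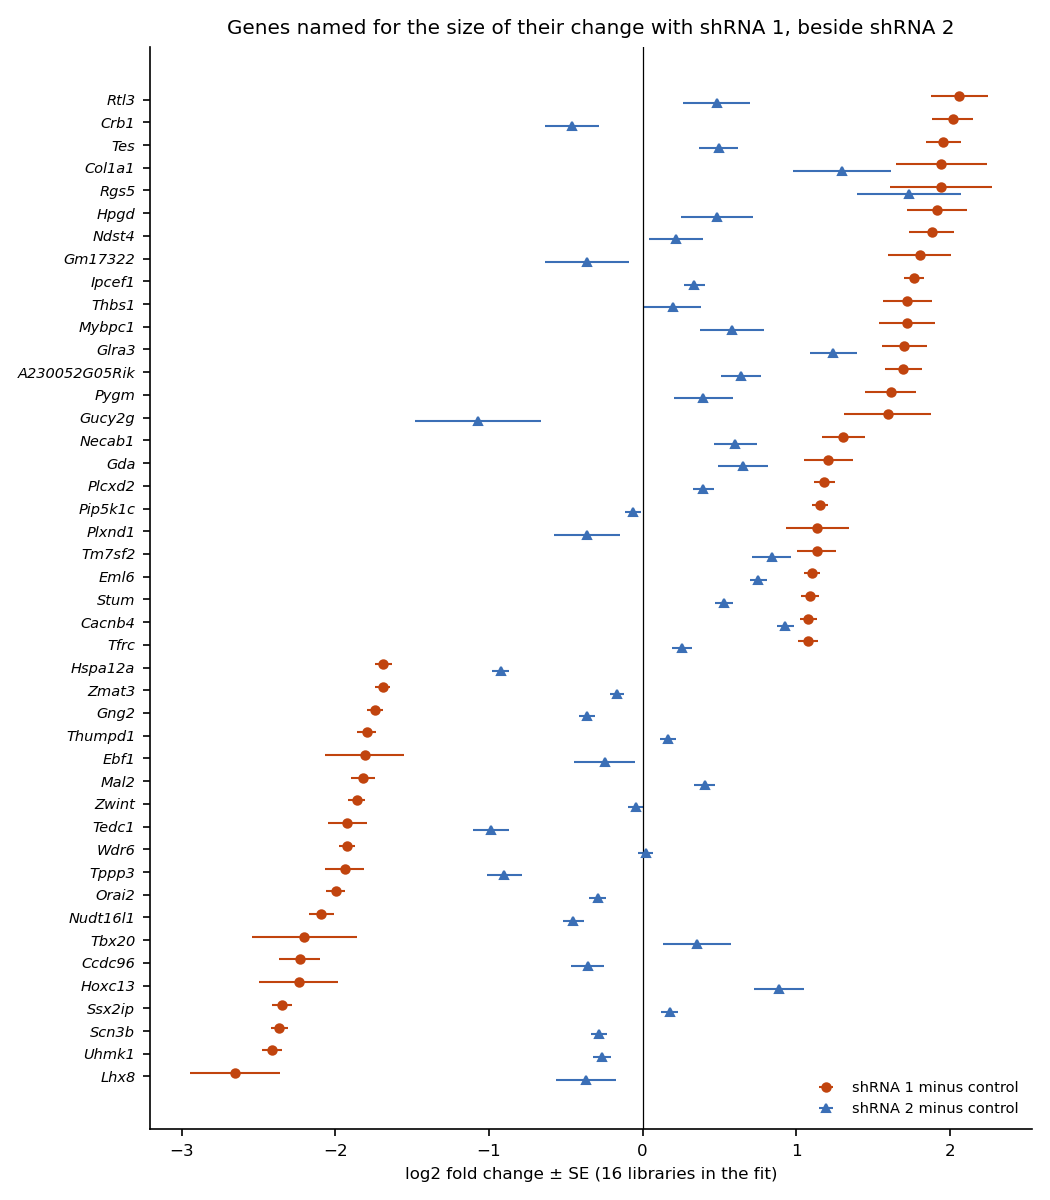
Log2 fold change ± SE against the 72Q control (x axis) for the genes named by size (y axis), with circles for shRNA 1 and triangles for shRNA 2. The largest falls with shRNA 1, from -2.65 to -1.69, lie beside shRNA 2 values between -0.99 and 0.89.

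Developmental transcription factors formed the list with the lowest median. The list held 87 homeobox, GATA, T-box and related factors, of which 55 passed the filter on low counts. Members near 0 in 25Q neurons or with shRNA 1 passed through the groups where they were higher. This favours falls among the 55, against the control and between hairpins, so their counts and median are a description. None of the 55 rose, 40 fell, and the median log2 fold change was -1.01, against 23.6% called lower and a median of -0.0054 over all genes. At least 2-fold falls numbered 28, beside 258 among all 15103 genes. In all 87 members, filter aside, 77 had a lower pooled level with shRNA 1, 6 a higher one and 4 had 0 counts in both groups. Their summed level was 107 to 123 CPM in control libraries and 56.1 to 70.6 CPM with shRNA 1, ranges that did not overlap. With shRNA 2 it was 147 to 177 CPM, and in 25Q 18.8 to 20.7 CPM. The list was chosen with earlier results of these data known. In the control its tested members stood above 25Q by a median of 2.76 log2 units. A choice of genes high in these control libraries would favour falls against them, with or without the filter. The counts and sums for the 87 are therefore a description too. Between hairpins 51 of 55 were lower and 1 was higher with shRNA 1. Over all 15103 genes 3914 were lower and 4116 higher, 53.2% in all.

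Values in brackets beside a gene, here and in what follows, are log2 fold changes of shRNA 1 over the control ± SE. Pou4f1, a POU factor of sensory neurons, was at 13.3, 16.2, 12.5 and 14.6 CPM in the control and 6.88, 7.26, 7.34 and 8.86 CPM with shRNA 1 (-0.89 ± 0.096, adjusted p = 4.39e-09), beside 18.5 CPM with shRNA 2 and 0.271 CPM in 25Q. Lhx4, a LIM-homeobox factor of motor neurons and pituitary, was at 4.94, 6.95, 5.14 and 4.85 CPM and 2.00, 1.89, 2.03 and 1.87 CPM (-1.43 ± 0.16, adjusted p = 1e-08). The groups did not overlap in either gene. Hoxc13, the Hox gene of hair and nail growth, was at 2.32, 3.39, 2.20 and 4.28 CPM and 0.588, 0.716, 0.395 and 0.499 CPM (-2.24 ± 0.26, adjusted p = 3.01e-09). Gata3, a GATA zinc-finger factor, had a log2 fold change of -2.03 (adjusted p = 1.83e-06). Tbx20, a T-box factor of heart development, was at 1.95, 0.875, 1.87 and 2.01 CPM and 0.118, 0.0512, 0.339 and 0.624 CPM (-2.20 ± 0.34, adjusted p = 4.65e-07). Members not called included Msx1 (-0.080, adjusted p = 0.781) and Irx5 (0.36, adjusted p = 0.152). Among the tested members 1 had 1 to 3 counts over the 4 shRNA 1 libraries and 54 had more. Hox genes lie beside antisense transcripts and close paralogs, and no source used here gives the strandedness of counting, so their single values are uncertain.

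**Figure D4:**
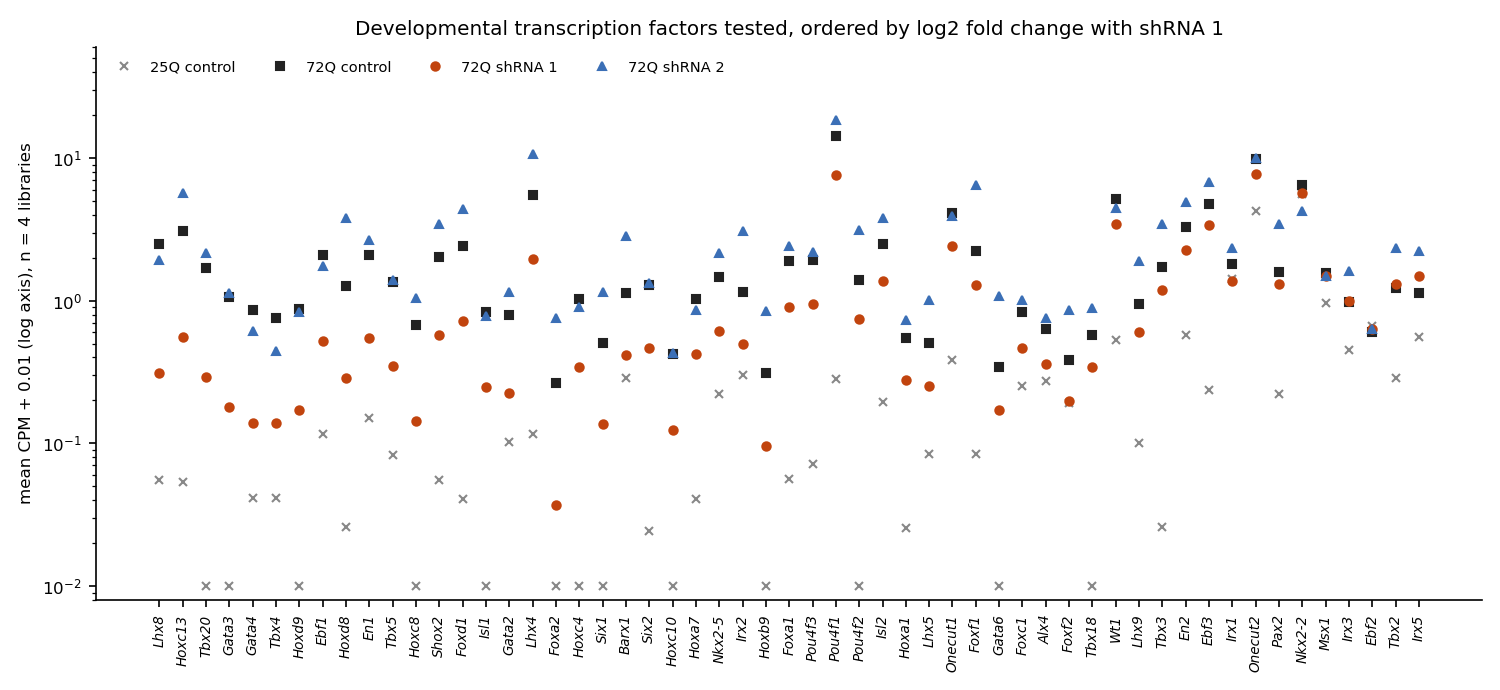
Mean CPM of 4 libraries plus 0.01 (y axis, log scale) of the 55 tested developmental factors (x axis, ordered by log2 fold change with shRNA 1) in the 4 groups. The shRNA 1 points lie below the 72Q control for most factors and above 25Q for most, and shRNA 2 points lie at or above the control for most.

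Among Twist1's own kind, the bHLH and Id factors, 9 of 25 rose and 5 fell (2 without the experiment in the model), with a median of -0.022. The share called was 56.0%, beside 46.3% of all genes (22.7% higher and 23.6% lower). The inhibitors Id1, Id2 and Id3 rose. Id3 went from 15.1, 16.2, 14.8 and 8.05 CPM to 31.2, 38.4, 33.6 and 23.7 CPM (1.24 ± 0.12, adjusted p = 6.32e-08), Id2 from 31.5, 31.1, 31.1 and 25.8 CPM to 50.5, 50.4, 51.6 and 42.4 CPM (0.71 ± 0.085) and Id1 from 7.68, 8.23, 5.88 and 5.21 CPM to 11.1, 11.3, 10.8 and 8.61 CPM (0.63 ± 0.14). No group pair overlapped in these 3 genes, and each differed from shRNA 2, by 1.19, 0.62 and 0.60. Id4 had a log2 fold change of -0.0035 (adjusted p = 0.972). The neuronal differentiation factors Neurod1 (0.99 ± 0.093) and Neurod2 (0.44 ± 0.054) rose. Hand2, a partner of Twist1, fell from 0.915, 1.11, 1.19 and 1.08 CPM to 0, 0, 0.282 and 0.187 CPM on 8 counts against 76, a ratio of 0.106 (95% interval 0.0441 to 0.219). Tal1 fell by 0.51 on the log2 scale. Of the E proteins, Tcf4 rose (0.27), while Tcf3 (-0.058, adjusted p = 0.387) and Tcf12 (-0.083, adjusted p = 0.151) were not called.

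Of the TGF-beta, BMP and activin pathway, whose BMP branch is known to induce Id genes, 15 of 47 members rose and 12 fell (11 and 7 without the experiment in the model). The share called was 57.4% here, 51.9% for the epithelial-mesenchymal and 61.5% for the matrix list that follow, beside 46.3% of all genes. The receptor genes Acvr1c (1.52) and Tgfbr1 (0.94) rose, and the ubiquitin ligase gene Smurf2 (-0.94) and the BMP mediator Smad5 (-0.50) fell. Twist1 is best known for epithelial-mesenchymal transition, and of 27 tested genes of that list 5 rose and 9 fell. Ctnnb1, encoding beta-catenin, fell from 705, 764, 684 and 696 CPM to 432, 438, 428 and 451 CPM (-0.70 ± 0.042, adjusted p = 1.54e-14), with -0.11 for shRNA 2. Mmp14 (-0.49) fell with overlapping groups and was not called without the experiment in the model (adjusted p = 0.0686), and Akt2 rose by 0.24. In the extracellular matrix list 17 of 39 rose, among them Thbs1 and Lamb1 (0.54), and 7 fell (3 without the experiment in the model), with Loxl1, a collagen cross-linking enzyme, at -1.06 and Lamc1 at -0.34.

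Targets of p53, the stress-activated transcription factor, were called lower more often than higher. Of 37 tested genes of that list, which includes apoptosis genes, 22 fell and 5 rose, with a median of -0.22; over all genes 23.6% were called lower and 22.7% higher. Zmat3, an RNA-binding protein induced by p53, fell from 147, 133, 175 and 158 CPM to 46.8, 41.7, 50.8 and 49.9 CPM (-1.69 ± 0.048, adjusted p = 5.73e-22). Ccng1, cyclin G1, fell from 134, 159, 126 and 155 CPM to 69.2, 63.1, 64.3 and 80.5 CPM (-1.05 ± 0.055, adjusted p = 8.99e-16). Neither gene's groups overlapped. Phlda3 (-0.87), Perp (-0.81), the cell death effector Bax (-0.61), the p53 ligase gene Mdm2 (-0.42) and Gtse1 (-1.07) fell too, and each differed from shRNA 2. Cdkn1a, the p21 cell cycle inhibitor, was at -0.29 (adjusted p = 0.0448), beside -0.19 for shRNA 2 (adjusted p of the difference 0.486). Rises were seen in Plk2 (0.29) and Trp53inp1 (0.36). The summed level of the list was 1921 to 2157 CPM in the control, 1596 to 1664 CPM with shRNA 1, 1923 to 2173 CPM with shRNA 2 and 1741 to 1872 CPM in 25Q.

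Progenitor and proliferation genes gave 0 rises and 9 falls among 28 (6 falls without the experiment in the model), with a median of -0.089. The 32.1% called is below the 46.3% of all genes, of which 23.6% were called lower. Tpx2, a spindle protein, fell by 0.58 on the log2 scale and Ccnd1 by 0.32. The cell cycle inhibitor genes Cdkn2b (3.72, 5.89, 3.45 and 4.39 CPM in the control, 2.12, 1.94, 1.69 and 2.43 CPM with shRNA 1, -1.06 ± 0.18) and Cdkn2a (-0.78 ± 0.16) fell, and both differed from shRNA 2, by -1.38 and -1.13. For Cdkn2b no shRNA 1 library reached the lowest control library.

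Of 40 activity-regulated genes, transcribed after calcium entry, 23 rose and 2 fell (17 and 1 without the experiment in the model), with a median of 0.37; over all genes 22.7% were called higher and the median was -0.0054. Arc, a regulator of glutamate receptor traffic, rose from 8.17, 10.8, 9.50 and 8.26 CPM to 15.6, 22.2, 17.6 and 17.3 CPM (0.98 ± 0.092, adjusted p = 3.18e-10). Nptx2, a secreted organiser of synaptic receptors, rose from 10.4, 11.2, 12.5 and 10.4 CPM to 18.2, 24.1, 18.98 and 18.3 CPM (0.83 ± 0.092), beside -0.20 for shRNA 2. In both genes all shRNA 1 libraries were above all control libraries. Egr4 (1.06), Rgs2 (1.05) and Egr3 (0.80) also rose, Ier2 (-0.35) and Per1 (-0.15) fell, and Fos was at 0.19 (adjusted p = 0.356). Per1 was not called without the experiment in the model (adjusted p = 0.152), without the filter (0.0802), without exp108 (0.116), or without its control library (-0.13) or its shRNA 1 library (-0.12) alone. The neurotrophin gene Bdnf was at 9.15, 6.48, 9.21 and 5.63 CPM and 11.8, 8.54, 9.43 and 9.79 CPM (0.38 ± 0.12, adjusted p = 0.00961), with overlapping groups. Ntf3, neurotrophin 3, rose by 1.28 ± 0.24. Of 19 neurotrophin and receptor genes 8 rose and 3 fell (3 and 1 without the experiment in the model) with a median of -0.017, the sorting receptors Sorcs2 (0.41) and Sort1 (0.32) and the receptor genes Ret (-0.37) and Ngfr (-0.65) among them. In this list 57.9% were called, beside 46.3% of all genes. Ngfr was not called without the experiment in the model (adjusted p = 0.0667), without exp108 (-0.42, adjusted p = 0.137), or without its control library (-0.55) or its shRNA 1 library (-0.46) alone.

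Of 32 glutamate receptor genes 16 rose and 3 fell (1 without the experiment in the model), with a median of 0.22. The share called was 59.4% here, 63.2% for the GABA, 78.4% for the channel, 68.4% for the vesicle and 69.7% for the scaffold list that follow, beside 46.3% of all genes. Grin2a, the NMDA receptor subunit that increases as synapses mature, rose from 13.2, 9.10, 12.5 and 11.8 CPM to 30.2, 19.7, 39.04 and 28.8 CPM (1.32 ± 0.079, adjusted p = 1.53e-14), and Cacng3, an AMPA receptor auxiliary subunit, by 1.03 ± 0.058. Neither was called between hairpins (differences 0.11 ± 0.070 and 0.061 ± 0.055, adjusted p = 0.17 and 0.371). Cacng4 (-0.43) and Grik4 (-0.24) fell, the latter not called without the experiment in the model (adjusted p = 0.155) or without the shRNA 1 library of exp109a (-0.16). For GABA and glycine receptors and inhibitory neuron genes the counts were 17 higher and 7 lower of 38 (11 and 4 without the experiment in the model). Gabra4 (0.89 ± 0.070) and Gabrb2 (0.70 ± 0.048) rose and Gabrg3 (-0.92 ± 0.078) and the interneuron factor Dlx2 (-0.51 ± 0.10) fell. Gabrg3 moved in opposite directions with the hairpins, its shRNA 2 value being 0.55 (difference -1.47 ± 0.076, adjusted p = 4.01e-15).

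Voltage-gated channel genes gave 29 rises and 11 falls of 51 (6 falls without the experiment in the model), and a median of 0.27. Scn3b, described above, had the largest fall of the list, and Kcna1 fell by 0.54 on the log2 scale. The calcium channel subunit genes Cacnb4 (1.08 ± 0.058) and Cacna2d1 (0.63 ± 0.054) rose. At the presynapse 20 of 38 vesicle genes rose (13 without the experiment in the model) and 6 fell. Sv2b, a vesicle glycoprotein, rose from 241, 165, 201 and 169.5 CPM to 416, 348, 389 and 333 CPM (0.94 ± 0.053) and Rab3c by 0.81 ± 0.052, whereas the calcium sensor gene Syt2 (-1.13 ± 0.11) fell. On the postsynaptic side 16 of 33 scaffold genes rose and 7 fell (8 and 4 without the experiment in the model), with Kalrn (0.63) and Dlg1 (0.46) higher and Shank3 (-0.84) and Nlgn2 (-0.30) lower.

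Axon guidance genes rose in 31 and fell in 8 of 56 (2 falls without the experiment in the model). The share called was 69.6% here, 55.6% for the pan-neuronal and 54.3% for the striatal list that follow, beside 46.3% of all genes. The semaphorin genes Sema3c (1.12 ± 0.068) and Sema4f (0.86 ± 0.066) rose, and the repulsive cue gene Rgma (-0.68 ± 0.066) and Efnb1 (-0.47 ± 0.070) fell. Pan-neuronal genes were called higher in 11 of 27 (7 without the experiment in the model) and lower in 4. The splicing regulators of the Rbfox family split, Rbfox1 rising from 118, 100.03, 121 and 113 CPM to 226, 227, 241 and 221 CPM (1.02 ± 0.053) and Rbfox2 falling from 619.97, 629, 675 and 647 CPM to 390.5, 402, 448 and 459.7 CPM (-0.60 ± 0.043). Thy1 rose by 0.52 and Gap43, a growth cone protein, fell by 0.26. Cortical projection neuron genes gave 10 rises and 8 falls of 40 (5 falls without the experiment in the model), a share called of 45.0% beside 46.3% of all genes, with Pcp4 (1.27) and Nfib (0.72) higher and Mef2d (-0.59) and Zbtb18 (-0.48) lower. Genes typical of striatal neurons gave 11 and 8 of 35 (4 falls without the experiment in the model), with Hpca (0.86) and Pde1b (0.75) higher and Ebf1 and Scn4b (-1.50) lower.

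**Figure D5:**
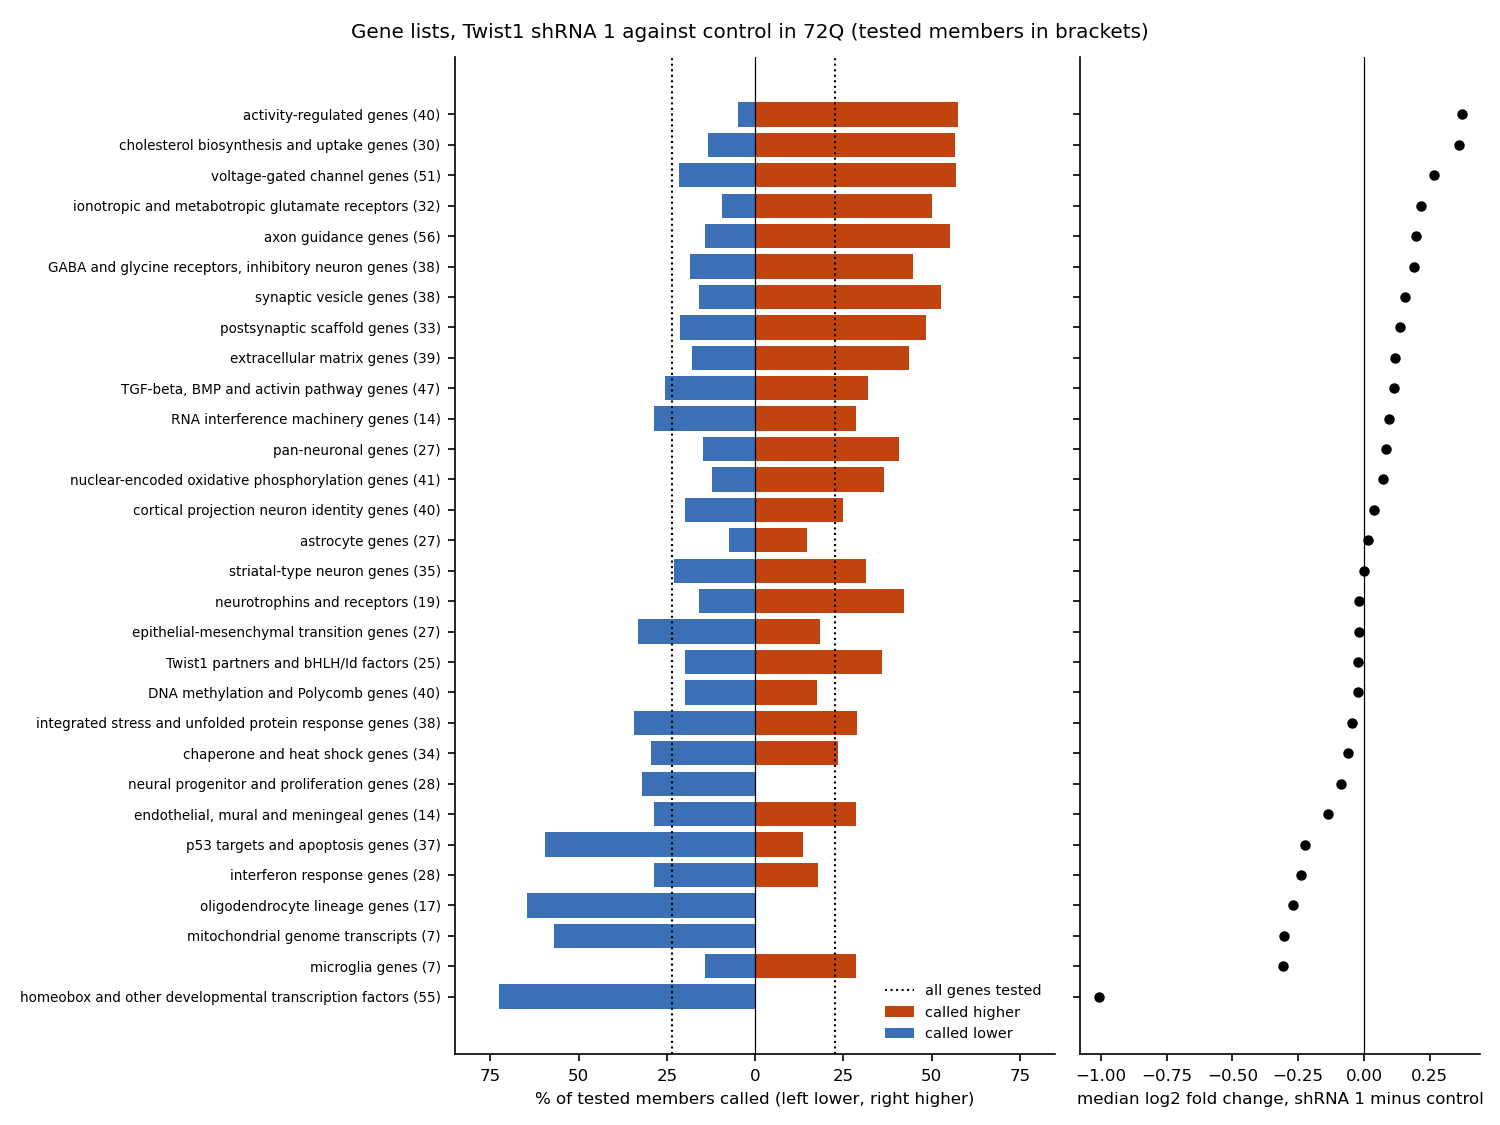
Left, percentage of the tested members of each list (y axis, number tested in brackets) called lower (to the left) and higher (to the right), with dotted lines at 23.6% and 22.7% for all genes; right, the median log2 fold change of each list. Developmental factors lie lowest at -1.01, and activity-regulated and cholesterol genes highest at 0.37 and 0.36.

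Cholesterol synthesis and uptake genes are induced by SREBP2 when sterols are low. Of 30 such genes 17 rose and 4 fell (2 falls without the experiment in the model), with a median of 0.36. The median was 0.27 without exp108. Over all genes 22.7% were called higher and 23.6% lower, and the median was -0.0054. Nsdhl, a late enzyme of the pathway, went from 106, 66.01, 99.8 and 76.96 CPM to 197, 171, 189 and 160.2 CPM (1.05 ± 0.093, adjusted p = 4.18e-07), with exp108 lowest in the control. Every shRNA 1 library lay above every control library. Tm7sf2 (1.13), Stard4 (1.01), Insig1 (0.57) and the sterol exporter gene Abcg1 (0.66) rose as well. Srebf1 (-0.30) and Abca1 (-0.16) fell. Abca1 was not called without the experiment in the model (adjusted p = 0.429), without exp108 (0.0692), or without the control library of exp108 (-0.13) or the shRNA 1 library of exp107 (-0.13). The median of the list with shRNA 2 was 0.55.

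Chaperone genes rose in 8 and fell in 10 of 34, and the 52.9% called is near the 46.3% of all genes. Dnajb2, a neuronal J-domain protein, fell from 89.2, 117, 92.3 and 119 CPM to 36.1, 41.02, 37.96 and 47.2 CPM (-1.36 ± 0.057, adjusted p = 3.28e-18), and Hsp90ab1, the constitutive HSP90, rose from 1111, 1299.5, 1004 and 1185 CPM to 1659, 1938, 1676 and 1634 CPM (0.59 ± 0.048). No library of 1 group reached the other in either gene. Cryab rose by 0.90. Unfolded protein response genes gave 11 rises and 13 falls of 38 (6 and 9 without the experiment in the model), with Hsp90b1 (0.44) and Pdia6 (0.38) higher and Syvn1 (-0.72) and Dnajb9 (-0.86) lower. In this list 63.2% were called, beside 46.3% of all genes.

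The machinery of RNA interference, through which hairpins act, had 4 members higher and 4 lower of 14 (2 and 3 without the experiment in the model). The share called was 57.1% here and 46.4% for the interferon list below, beside 46.3% of all genes. Its TNRC6 scaffolds diverged. Tnrc6b fell from 265, 211, 311 and 281 CPM to 144, 117, 165 and 172 CPM (-0.84 ± 0.046), Tnrc6c rose from 198, 149, 209 and 179 CPM to 248, 226, 277 and 263 CPM (0.47 ± 0.051) and Tnrc6a rose by 0.32 ± 0.046. With shRNA 2 the values were 0.099, -0.88 and 0.13, and between hairpins Tnrc6c differed by 1.35 ± 0.053 (adjusted p = 6.83e-19). Dicer1, which cuts hairpins into guides, fell by 0.65 on the log2 scale. Of 40 DNA methylation and Polycomb genes, 7 rose and 8 fell, 37.5% in all and below the 46.3% of all genes, with Dnmt1 (0.40) and Ezh1 (0.26) higher and Tet3 (-0.62) and Mbd1 (-0.38) lower. Interferon response genes rose in 5 and fell in 8 of 28 (2 and 4 without the experiment in the model), with H2-D1 (0.50) and H2-K1 (0.63), near-identical class I genes whose reads may be shared, higher (H2-D1 not without the experiment in the model, adjusted p = 0.370) and the peptide transporter gene Tap1 (-0.91) and Ifit2 (-0.44) lower.

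Nuclear genes of oxidative phosphorylation rose in 15 and fell in 5 of 41 (5 and 2 without the experiment in the model), by small amounts in the named members: Sdhc 0.32, Sdhd -0.27 (not called without the experiment in the model, adjusted p = 0.0727) and Tfam -0.28. The share called was 48.8% here and 57.1% for the mitochondrial genome that follows, beside 46.3% of all genes. The mitochondrial genome itself gave 4 falls and 0 rises of 7, with mt-Nd4 at -0.32 ± 0.084 and mt-Nd2 at -0.39 ± 0.11.

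Markers of other cell types that the cultures could hold were examined beside these lists. The share called was 64.7% for oligodendrocyte lineage and 22.2% for astrocyte genes, beside 46.3% of all genes. Oligodendrocyte lineage genes fell in 11 of 17 (5 without the experiment in the model) and none rose; their summed level was 1411 to 1722 CPM in the control, 1154 to 1337 CPM with shRNA 1 and 939 to 1202 CPM with shRNA 2. Gpr17, a receptor of committed precursors, fell from 245, 218, 212 and 158 CPM to 121, 116, 110.4 and 91.001 CPM (-0.92 ± 0.072, adjusted p = 3.97e-09), and its difference between hairpins was -0.079 ± 0.073 (adjusted p = 0.388). Astrocyte genes rose in 4 and fell in 2 of 27 (3 and 0 without the experiment in the model, 8 and 2 without exp108). Their sums overlapped, at 10055 to 11351 and 10566 to 11598 CPM, with the water channel gene Aqp4 at 0.57 ± 0.060, Glul at 0.26, Sox9 at -0.30 and Clu at -0.15. Without the experiment in the model Glul, Sox9 and Clu were not called (adjusted p = 0.0749, 0.112 and 0.4998). Clu was also lost without exp108 (-0.11), without its control library (-0.13) or its shRNA 1 library (-0.11) alone, and without the shRNA 1 library of exp107 (-0.13).

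Microglia genes were near the floor. Only 7 of 20 passed the filter, 2 rose (Cd68, at 0.75, among them) and 1 fell (Laptm5 -0.90). The share called was 42.9% here and 57.1% for the endothelial, mural and meningeal list below, beside 46.3% of all genes. Laptm5 was not called with DESeq2 (adjusted p = 0.0896), nor without the control library of exp109b (-0.49) or exp108 (-0.92), nor without the shRNA 1 library of exp109a (-0.75), exp109b (-0.86) or exp107 (-0.85). Siglech had 0 counts in both groups, and Tyrobp had 2 counts over the control libraries and 0 with shRNA 1. Their sum was 26.2 to 33.04 and 28.9 to 36.7 CPM. Of endothelial, mural and meningeal genes 14 of 28 were tested, 4 rose and 4 fell (2 and 2 without the experiment in the model). Their sums did not overlap, at 175 to 186 CPM in the control and 147 to 159.6 CPM with shRNA 1, while the endothelial gene Tie1 had 0 counts in both groups and Ly6c1 and Anpep had 2 counts each over the control libraries and 0 with shRNA 1. Rgs5, a pericyte gene, was at 0.305, 0.233, 0.170 and 0.310 CPM and 1.47, 1.02, 1.41 and 1.31 CPM and Col1a1 at 0.427, 0.292, 0.565 and 0.619 CPM and 2.53, 1.69, 2.49 and 1.87 CPM, both apart between groups, while Cspg4 (-0.31), shared with oligodendrocyte precursors, and the meningeal factor Zic1 (-0.57) fell. The part of these cell types and of the mitochondrial share in the other lists was not tested.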

How the data were processed

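RNA was sequenced after ribosomal RNA removal with Ribo-Zero, per the labels. The submitters' processing notes name STAR 2.0.4b, featureCounts 1.45 of Subread and the build GRCm38. No source used here gives the strandedness, the annotation release or the treatment of multi-mapping reads. The authors deposited raw counts per library for 41388 genes, and every test used these counts. The deposited CPM equalled count over library total (largest difference 2.5e-11) and the deposited RPKM equalled that CPM per kilobase (largest difference 4.7e-11); neither was tested. Symbols were matched for 40254 genes (97.26%).

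Genes were filtered with filterByExpr and libraries scaled by TMM, and the quasi-likelihood test of edgeR 4.0.16 (R 4.3.3, robust, prior count 2) was run on all 16 libraries, with terms for group and experiment. The SE is the unshrunken log2 fold change over the square root of F. The common biological coefficient of variation was 5.24%. The model was tested on simulated data. Replicate numbers in the titles match experiments in all 72Q libraries. Deviations from the group means were shared within an experiment (correlations across genes 0.321 to 0.515), so experiment was kept as the block. Between experiments the mean was -0.135. Deviations cancel within each group, so this mean is largely set by the correlations within experiments and is not a separate comparison. Replicates of a group differed by at least 2.85 times sampling noise (4.81 in the shRNA 1 group and 6.38 in its control), by chi-square over its degrees of freedom. No label says that they were separate cultures; the p-values then reflect only the spread among these libraries, which may be technical.

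Named genes were Twist1 and Htt, the sets described in the report, and up to 4 called members of each of 30 lists with the smallest p, 2 at most in each direction. Other list members named were chosen after their values were seen, such as Id1 to Id4, Egr3, Egr4, Mdm2 and Pou4f1. Some list members that this rule names are not reported here. The comparison, its members and the lists were chosen with earlier results of these data known. Alternatives were other scalings, no filter, no block, DESeq2 1.42.0, the 2 groups alone and each library left out; leaving out exp108 was added after its place on the second component was seen.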

Additional observations from a re-analysis of the deposited data

Results flagged for a closer look

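In 4 of 116 groups of 4 libraries, 1 library stood so far from its nearest neighbour that the gap, as a share of the group's whole range, passed Dixon's 95% limit, which chance passes in about 1 of 20 groups. For Mybpc1, a myosin-binding protein gene, the shRNA 1 library of exp109a was high at 6.95 CPM against 4.49 to 4.82 CPM in the other libraries (gap over range 0.866). For Tbx20 the control library of exp108 was low at 0.875 CPM against 1.87 to 2.01 CPM (0.870). For Thumpd1, a tRNA acetylation adaptor, the shRNA 1 library of exp109b was high at 23.7 CPM against 19.5 to 20.1 CPM (0.859). For Zfp663 the control library of exp108 was low at 0.409 CPM against 0.826 to 0.904 CPM (0.842). Each of the 4 genes kept its call and direction when that library was left out.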

How the results depend on the processing

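Leaving the experiment (the replicate block) out of the model gave 4561 calls for shRNA 1 against the control, 2244 higher and 2317 lower, in place of 6999; of the 4561, 4560 were also called with it. The same change gave 5504 calls between hairpins in place of 8030. Other settings kept the first count between 6334 (DESeq2) and 7098 (only the 2 groups), and 6750 of 28258 genes were called with no filter. Leaving out each library gave 6171 to 6626 calls against the control and 7241 to 7519 between hairpins, and without exp108 the counts were 6173 and 7293. Among the 155 named genes no log2 fold change against the control reversed, and 12 lost their call under at least 1 setting: Mmp14, Ngfr, Grik4, Per1, Abca1, H2-D1, Sdhd, Glul, Sox9, Clu, Bcas1 and Laptm5. Between hairpins, Htt, Col1a1 and Glra3 lost theirs. Scarce genes limit precision, as the falls in Lhx8 and Hand2 rest on 21 and 8 counts.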
